A study of Mus musculus with 183 samples.

Results

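A list of 36 aminoacyl-tRNA synthetase genes of the mouse was followed in the count table of an mRNA half-life experiment, as 20 genes for cytosolic enzymes and 16 for mitochondrial enzymes. The genes were taken by name and not by a measured value, although earlier results of these data were known when they were chosen. All 36 were found among the 53380 genes counted. The mitochondrial set holds the symbols that end in 2, from Aars2 to Yars2. Of the 36 mRNAs, 33 also have a row in a table of protein binding to 7240 mRNAs, where Fars2, Lars2 and Wars2 were not found.

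Each aminoacyl-tRNA synthetase joins 1 amino acid to its tRNAs, which the ribosome then reads. Cytosol and mitochondria use largely separate enzymes, all made from nuclear genes, although single genes for the glycyl (Gars) and lysyl (Kars) enzymes serve both compartments. In the cytosol, 8 of the genes encode enzymes of the multisynthetase complex, among them Eprs, whose product charges both glutamate and proline, whereas the other 12 encode free enzymes, with Farsa and Farsb as the subunits of a single enzyme. Genes for many cytosolic synthetases are known targets of ATF4, a transcription factor that is translated when amino acids are short or the ribosome is stressed and that turns on amino acid import and synthesis.

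The study asked which decay pathway acts on which mRNA in mouse embryonic stem cells grown in serum and LIF. SKIV2L is the helicase of the Ski complex, which feeds mRNAs to the cytoplasmic exosome from the 3′ end; XRN1 is the cytoplasmic 5′ to 3′ exonuclease, MTR4 the helicase of the nuclear exosome, and AVEN an RNA-binding partner of the Ski complex. Binding was measured by CRAC, in which a tagged protein is crosslinked to RNA by UV light and the bound fragments are sequenced. Decay was measured in 47 RNA-seq libraries of 2 clonal lines. Clone 5F carried Rosa26 Cre-ERT2 and floxed Skiv2l alleles (Skiv2l fl/fl). Clone 7E lacked Aven and was labelled with a Rosa26 Cre-ERT2/BirA-V6 locus (BirA-V5 in the study's methods), tagged Skiv2l (3xFLAG-Avi on both alleles) and Aven-/-. The label of these libraries names no floxed allele, whereas the methods describe a conditional Skiv2l fl/fl line made in Aven-/- cells with tagged Skiv2l, in which 4OHT acts on the floxed Skiv2l. By the methods, both clones thus carried Cre-ERT2 and floxed Skiv2l at day 0, before its removal was induced. Each was sampled untreated (day 0) and after 4 days of 0.1 µM 4-hydroxytamoxifen (4OHT, which activates Cre-ERT2), and at each day after mock treatment with DMSO for 6 h and after 120, 240 and 360 min of actinomycin D, which stops transcription. There were 3 replicates a point, but only 2 in the 120 min group of clone 5F at day 0. The methods call the replicates technical and each line is 1 clone, so the tests below measure the spread between these libraries and cannot tell a clone from its genotype.

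The libraries held 24540658 to 34208466 gene counts. Skiv2l itself was at 147 CPM (counts per 1e6 gene counts) in each of the day 0 mock libraries of clone 5F and at 132 to 152 CPM in those labelled day 4, so the gene count did not fall; the count covers the whole gene, including exons outside the floxed segment, and cannot show recombination by itself. In clone 7E it was at 31.1 to 36.0 CPM at day 0 and 12.3 to 13.7 CPM at day 4. Aven was at 32.0 to 36.0 CPM in clone 5F and 1.29 to 2.98 CPM in clone 7E. Summed over 8 markers, stem cell transcripts stood at 2606 to 2683 CPM in clone 7E at day 4 and at 3024 to 3310 CPM in the other mock groups. Markers of other cell types summed to 60.1 to 103 CPM, with 10 of 13 expressed enough to be tested. At day 0 the endoderm markers Gata4 (35.3 to 36.8 against 2.61 to 3.77 CPM), Gata6 (13.6 to 14.2 against 1.02 to 1.41) and Sox17 (9.73 to 11.9 against 0.960 to 1.15) were higher in clone 5F than in clone 7E. The neural markers Pax6 (24.4 to 25.6 against 49.4 to 51.9 CPM) and Sox1 (2.71 to 3.74 against 13.4 to 15.8) were lower, and Sox1 in clone 7E stood at 2.71 to 3.76 CPM at day 4. In each clone and day, 1 library at each actinomycin D time stood apart, with mt-Rnr2, the large mitochondrial ribosomal RNA, at 0.212 to 0.659% of the counts in these 12 libraries and at 0.854 to 3.05% in the other 35. These were replicate 1 at 120 min, replicate 2 at 240 min and replicate 3 at 360 min in all 4 courses, and the decay results are also given without them. Spike-in RNA added at lysis made up 0.640 to 0.659% of the counts in the clone 7E mock libraries of day 4 and 0.275 to 0.320% in the other mock libraries. Counts were therefore read on a relative scale (size factors within each time point), on which a change is a change against the other mRNAs, and again against each library's own spike-ins.

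Because several free cytosolic synthetase mRNAs rose together at day 4, as given below, their promoters are shown here. RefSeq promoter windows, running from 250 bases before to 50 bases after the start on GRCm38.p6, were matched for 27 of the 36 genes and searched on both strands for TGATGNAA, a short form of the element that ATF4 binds with C/EBP partners; no other motif was searched. The letters were found in 5 of 13 cytosolic windows (Iars, Aars, Gars, Tars and Yars), in 0 of 14 mitochondrial windows and in 1304 of all 32851 windows (3.97%). Of 20 other windows of known ATF4 target genes, 7 held them. Shown first are the 150 bases before the start of the genes with an upstream match, in the direction of the gene and with the match in capitals; all matches in this block lie on the opposite strand and read TTNCATCA.
Aars, chr8:111033692-111033841, plus strand: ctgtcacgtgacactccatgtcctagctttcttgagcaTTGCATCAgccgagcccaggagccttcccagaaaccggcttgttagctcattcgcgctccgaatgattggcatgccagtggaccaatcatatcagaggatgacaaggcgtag
Gars, chr6:55037851-55038000, plus strand: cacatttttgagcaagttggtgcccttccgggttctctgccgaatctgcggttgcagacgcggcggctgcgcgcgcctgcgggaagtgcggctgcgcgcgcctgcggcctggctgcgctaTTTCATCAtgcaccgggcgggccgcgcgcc
Tars, chr15:11399659-11399808, minus strand: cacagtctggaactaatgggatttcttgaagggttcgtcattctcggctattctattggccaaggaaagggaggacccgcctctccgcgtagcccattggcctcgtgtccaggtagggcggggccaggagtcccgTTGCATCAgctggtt
In the remaining genes the match lay just downstream of the start, shown as 30-base windows, and Aars held such a match as well.
Iars, chr13:49682126-49682155, plus strand: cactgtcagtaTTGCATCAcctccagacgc
Yars, chr4:129189895-129189924, plus strand: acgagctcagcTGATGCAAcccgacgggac
Aars, chr8:111033840-111033869, plus strand: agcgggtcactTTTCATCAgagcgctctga
Sars, Farsb and Mars each had a window without a match. No window was matched for Cars, Hars, Lars, Nars, Rars, Vars, Wars, Hars2 and Pars2. A match describes letters in a window and does not show binding.

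Cytosolic synthetase mRNAs were far more abundant than mitochondrial ones. Levels between genes were compared as normalized counts per kb of the longest principal transcript, in the mock libraries of clone 5F at day 0. The cytosolic set had a median of 2659 ± 53.8 counts per kb (SD, n = 3) and a range of 1158 to 8624. The mitochondrial set had a median of 329 ± 1.83 and a range of 49.5 to 1279, against 175 for 14593 protein-coding genes. All 20 cytosolic mRNAs and 13 of 16 mitochondrial mRNAs stood above that median, and the medians of the sets lay at its percentiles 95.1 and 62.6. Median transcript lengths in the sets were 2855 and 2868 nucleotides.

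**Figure D1:**
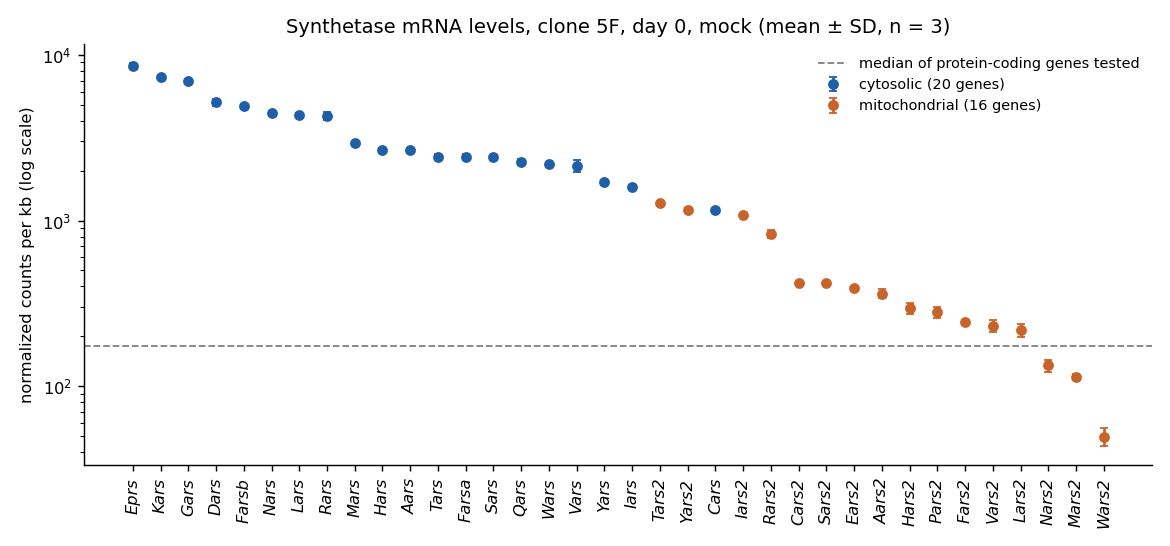
Levels of the 36 synthetase mRNAs in normalized counts per kb (log scale), as mean ± SD of the 3 mock libraries of clone 5F at day 0; the dashed line is the median of 14593 protein-coding genes, at 175. The cytosolic mRNAs lie between 1158 and 8624 and overlap with the highest mitochondrial mRNAs, Tars2 at 1279 and Yars2 at 1164.

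Among cytosolic members the highest levels were those of Eprs (8624 ± 295 counts per kb, n = 3), Kars (7328 ± 155) and Gars (6935 ± 97.8), the last of which serve both compartments. The lowest were those of the cysteinyl enzyme Cars (1158 ± 4.46), Iars (1598 ± 35.7) and Yars (1700 ± 41.7). In the mitochondrial set, Tars2 (1279 ± 23.2), Yars2 (1164 ± 30.3) and Iars2 (1075 ± 18.0) led, and Wars2 (49.5 ± 6.03), Mars2 (114 ± 5.13) and Nars2 (133 ± 11.0) were lowest. The rank of Mars2 depends on its length of 11294 nucleotides, the longest of its set. Before division by length it stood at 1282 normalized counts, above Wars2 at 219 and Nars2 at 504. In all 16 amino acids that have an enzyme of each kind, the cytosolic mRNA was the more abundant. Exonic bases are shared with a neighbouring gene by 6 cytosolic and 7 mitochondrial members, most in Iars2 (24.2% of its bases) and Aars (15.1%, with Exosc6), and without strand information reads there cannot be assigned to 1 of the genes.

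The sets also differed in stability. From log-linear fits over the 11 libraries of clone 5F at day 0, the cytosolic set had a median half-life of 726 ± 76.8 min (SD over replicate numbers, n = 3) and the mitochondrial set one of 391 ± 7.65 min, against 288 min for all 14593 protein-coding genes. The longest cytosolic estimates, for Yars (1742 min), Sars (1403 min, 95% interval 882 to 3423) and Cars (1298 min, 959 to 2009), lie far beyond the 360 min of the course, and for Yars the interval had a lower end of 745 min and no upper end. Shortest in this set were Farsa (402 min, 314 to 558), Wars (531 min, 474 to 604) and Rars (538 min, 445 to 681). Short-lived mRNAs were found in the mitochondrial set, among those of the prolyl, methionyl and histidyl enzymes. They were Pars2 (91.1 min, 75.6 to 115), Mars2 (105 min, 90.6 to 125) and Hars2 (126 min, 106 to 156). Cars2 (682 min, 452 to 1381), Aars2 (639 min, 470 to 999) and Vars2 (614 min, 409 to 1230) were the longest of that set. The cytosolic member had the longer half-life in 15 of 16 pairs for the same amino acid.

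The day 0 libraries of clone 7E gave median half-lives of 704 ± 148 min in the cytosolic and 369 ± 41.3 min in the mitochondrial set, against 286 min for all protein-coding genes. Without the mock libraries the cytosolic median was 711 min, the mitochondrial median 582 min and that of all protein-coding genes 435 min. The sets thus lay closer together in this clone. In clone 5F at day 0 the corresponding medians were 782, 485 and 467 min. With edgeR (quasi-likelihood F-test, p-values adjusted by Benjamini-Hochberg over 18623 genes), no member differed in slope between the clones at day 0, with a background of 0.0376% of genes slower and 0.00537% faster in clone 7E; 1 member had an unadjusted p under 0.05, and DESeq2 and limma called no member either.

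Levels at day 0 did differ between the clones. On the relative scale, 10 of 20 cytosolic mRNAs were higher in clone 7E than in clone 5F and 2 were lower, and 2 of 16 mitochondrial mRNAs were higher and 2 lower (background 18.1% of 17209 genes higher and 18.1% lower). Alanyl-tRNA synthetase mRNA (Aars) led the rise: its mock libraries stood at 14711, 15495 and 15485 normalized counts in clone 5F and at 24012, 24570 and 24087 in clone 7E. All clone 7E libraries lay above all clone 5F libraries, a log2 difference of 0.67 ± 0.04 (SE; edgeR, adjusted p = 3.36e-12). Farsa encodes a subunit of the phenylalanyl enzyme, and Cars and Vars the cysteinyl and valyl enzymes. The next differences were those of Farsa (0.41 ± 0.05), Cars (0.34 ± 0.04) and Vars (0.30 ± 0.07), and in the mitochondrial set those of Cars2 (0.54 ± 0.06) and Iars2 (0.19 ± 0.04). Farsb (-0.16 ± 0.04), which encodes the partner subunit of Farsa, and Qars (-0.14 ± 0.04) were lower, as were Vars2 (-0.22 ± 0.07) and Tars2 (-0.19 ± 0.04). Without replicate 1 the members called lower went from 4 to 1, as Farsb, Qars and Vars2 no longer passed, and Iars2 no longer passed as higher; Qars did not pass without replicate 3 either. The part of the endoderm and neural markers that differ between the clones was not tested. The median over all genes was -0.01 on this scale and -0.17 against own spike-ins. There 5 members were higher and 11 lower, beside 1574 and 6268 of 17209 genes. In bulk samples, fewer cells and less RNA per cell cannot be told apart. As the clones differ in more than Aven, a clone effect and a genotype effect cannot be told apart either.

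In clone 7E, many cytosolic synthetase mRNAs took a larger share of the transcriptome after 4 days of 4OHT, and several mitochondrial ones a smaller share. On the relative scale 11 of 20 cytosolic mRNAs were higher at day 4 and none lower, against 20.7% of 16333 genes higher and 19.4% lower; 8 of the 12 free enzymes and 3 of the 8 enzymes of the complex were among them. The median log2 change was 0.14 in the cytosolic set, 0.22 in its free members, 0.00 in the complex, -0.12 in the mitochondrial set and -0.01 over all genes. Of the mitochondrial mRNAs, 3 were higher and 5 lower. Against own spike-ins every one of the 36 members was instead lower at day 4, as were 14717 of 16333 genes. Medians were -0.96 (cytosolic), -1.22 (mitochondrial) and -1.11 over all genes, so the rises are rises against other mRNAs. The part of the higher spike-in share of these libraries in the result was not tested.

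Cars stood at 4742, 4677 and 4791 normalized counts in the clone 7E mock libraries of day 0 and at 6520, 6587 and 6601 at day 4. The day 4 libraries lay above all day 0 libraries, with a log2 change of 0.47 ± 0.04 (edgeR, adjusted p = 8.52e-09) that became -0.63 against own spike-ins. Aars rose from 24012, 24570 and 24087 to 33074, 31785 and 32447 (0.42 ± 0.04, edgeR, adjusted p = 3.11e-08), again with no overlap, and stood at -0.68 against own spike-ins. The asparaginyl and tyrosyl enzymes followed, with changes of 0.39 ± 0.04 in Nars and 0.34 ± 0.05 in Yars (own spike-ins, -0.71 and -0.75). Gars, at 19701, 19274 and 20131 at day 0 and 22634, 23283 and 22264 at day 4, rose by less (0.21 ± 0.04, edgeR, adjusted p = 0.000538). Kars, at 17906, 17722 and 18425 and then 16779, 16538 and 16950, did not pass the test (-0.11 ± 0.04, edgeR, adjusted p = 0.0563), although its groups did not overlap; both genes serve both compartments.

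Among the mitochondrial mRNAs of clone 7E, Mars2 (0.27 ± 0.06), Wars2 (0.26 ± 0.09) and Sars2 (0.22 ± 0.06) were higher at day 4 on the relative scale (own spike-ins, -0.83, -0.84 and -0.87). The Wars2 call was lost without any 1 replicate, with DESeq2 and in the unfiltered table, and that of Sars2 without replicate 3 (0.16). Hars2 (-0.31 ± 0.07), Aars2 (-0.30 ± 0.07) and Iars2 (-0.24 ± 0.05) were lower, and so were Pars2 (-0.22 ± 0.07) and Lars2. Aars2 stood at 1242, 1349 and 1351 normalized counts at day 0 and at 1036, 994 and 1168 at day 4, without overlap. The Lars2 call rested on 1 library, as its values were 2167, 797 and 804 at day 0 and 751, 783 and 993 at day 4. Its log2 change of -0.57 ± 0.23 turned to 0.15 without replicate 1, and the number of members called lower fell from 5 to 3 without that replicate.

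**Figure D2:**
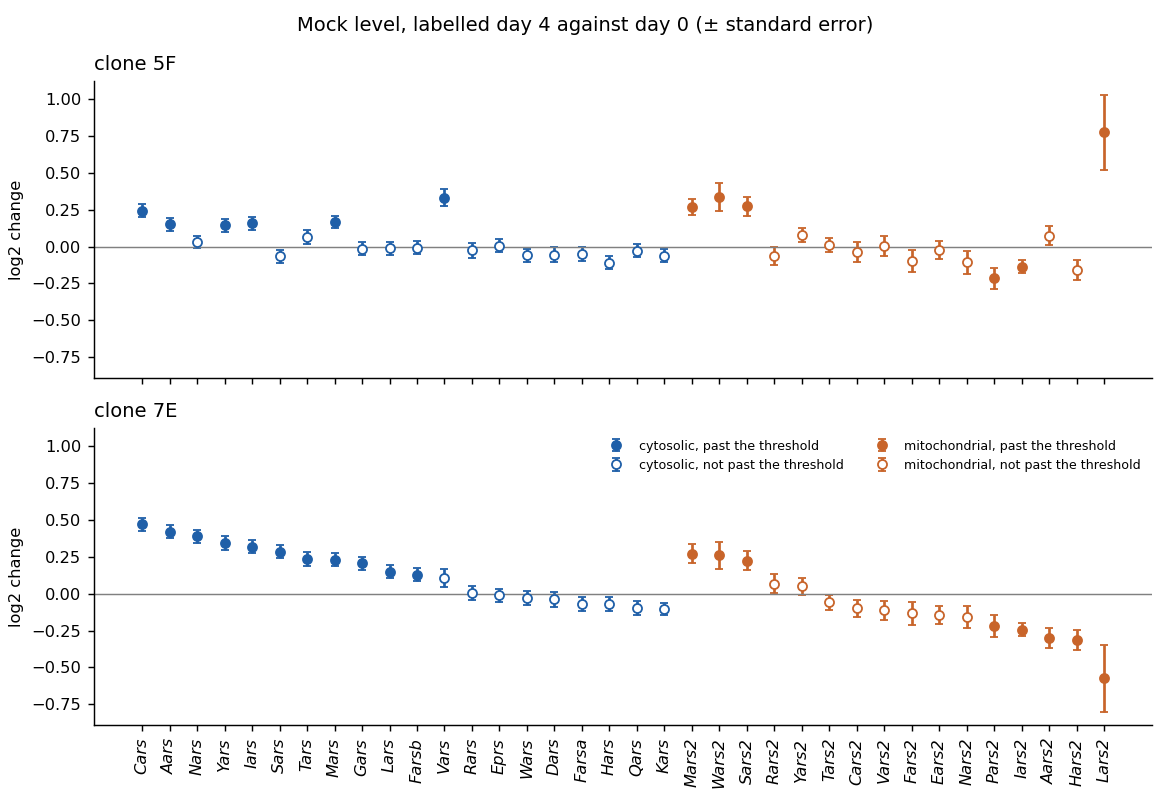
Log2 change of each synthetase mRNA in the mock libraries, labelled day 4 against day 0, ± standard error, on the relative scale; filled points passed the edgeR test. In clone 7E, 11 cytosolic mRNAs are filled and above 0 and 5 mitochondrial mRNAs are filled and below 0. Against own spike-ins all 36 changes in clone 7E were negative, as was the median over all genes, -1.11.

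Clone 5F showed a smaller shift. In its libraries labelled day 4, 6 cytosolic mRNAs were higher and none lower, and 4 mitochondrial mRNAs were higher and 2 lower, beside 12.8% of 16349 genes higher and 11.6% lower. The median change was -0.01 in both sets and 0.00 over all genes. Vars (0.33 ± 0.06), Cars (0.24 ± 0.04), Mars (0.17 ± 0.04) and Iars (0.16 ± 0.04) led the cytosolic calls. Cars stood at 3729, 3744 and 3716 normalized counts at day 0 and at 4491, 4313 and 4429 in the libraries labelled day 4, with no overlap (edgeR, adjusted p = 0.000351). In the mitochondrial set Wars2 (0.34 ± 0.10), Sars2 (0.27 ± 0.07) and Mars2 (0.27 ± 0.06) were higher, as in clone 7E, and Pars2 (-0.22 ± 0.07) and Iars2 (-0.14 ± 0.04) were lower. Lars2 was called higher (0.78 ± 0.25) through 1 library, with 2581, 1010 and 750 normalized counts against 853, 774 and 919 at day 0, and stood at 0.06 without replicate 1. Leaving out replicate 1 took the members called higher from 10 to 3, and leaving out replicate 3 took them to 6. The calls of Pars2 and Iars2 as lower were lost without replicate 1, without replicate 3 and with the replicate number as a block. Wars2 did not pass without replicate 1 or 2, nor Sars2 without replicate 1 or 3. Against own spike-ins 2 members were higher and 4 lower, beside 1063 and 2351 of 16349 genes, with a median over all genes of -0.07.

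The difference between the clones was tested itself, as a clone by day contrast over the 12 mock libraries. The 4OHT change was more positive in clone 7E for 6 cytosolic mRNAs, all of free enzymes, and more negative for 1 mitochondrial mRNA, beside 6.65% of 17209 genes more positive and 5.29% more negative. Nars had the largest positive difference: its libraries were at 12118, 11872 and 12556 and then 12725, 12319 and 12265 normalized counts in clone 5F, which overlap, and at 13352, 13121 and 13286 and then 17823, 17419 and 16888 in clone 7E, which do not. The contrast was 0.36 ± 0.05 for Nars (edgeR, adjusted p = 6.61e-05), 0.35 ± 0.06 for Sars, 0.27 ± 0.06 for Aars and 0.23 ± 0.05 for Cars, with Gars and Yars as the others called. Aars2 differed the other way (-0.37 ± 0.10, edgeR, adjusted p = 0.0124). Against own spike-ins the median over all genes was -1.03, with 14319 of 17209 genes called more negative. All 36 contrasts were then negative, from Nars at -0.67 and Sars at -0.68 downward. Without replicate 1 the members called more positive were 2 and without replicate 2 they were 3.

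Other genes of the ATF4 response, from a list chosen with earlier results of these data known, moved in the same comparisons. Of 23 such genes, 21 were higher and 1 lower at day 4 in clone 7E (median log2 change 0.89), beside 20.7% of all genes higher and 19.4% lower, and 17 were higher and 1 lower in the clone 5F libraries labelled day 4 (median 0.38), beside 12.8% and 11.6%, all on the relative scale. Against own spike-ins 9 were higher and 12 lower in clone 7E (median -0.21, against -1.11 over all genes), beside 259 and 14717 of 16333 genes. In clone 5F 16 were higher and 1 lower (median 0.31), beside 1063 and 2351 of 16349 genes. Atf4 itself stood at 3650, 3578 and 3597 normalized counts in clone 5F at day 0 and at 6324, 6492 and 6285 in the libraries labelled day 4. In clone 7E it stood at 4797, 4665 and 4875 at day 0 and at 12855, 12448 and 11195 at day 4. Neither clone showed overlap; the log2 changes were 0.82 ± 0.04 and 1.35 ± 0.05, and their difference was 0.53 ± 0.07 (edgeR, adjusted p = 4.59e-06). The cystine transporter gene Slc7a11 changed by 3.05 ± 0.45 and 4.45 ± 0.32 in clones 5F and 7E. Its day 0 mock levels were only 1.64 to 7.04 and 2.93 to 5.96 normalized counts. The glutathione-degrading enzyme gene Chac1 changed by 1.75 ± 0.12 and 2.82 ± 0.11, and the lipoprotein receptor gene Vldlr by 1.42 ± 0.21 and 2.59 ± 0.14. Ddit3, which encodes the stress factor CHOP and shares exonic bases with Mars, changed by 1.43 ± 0.13 and 2.20 ± 0.13. At day 0, 15 of the 23 were higher in clone 7E than in clone 5F and 1 was lower, beside 18.1% of all genes in each direction. On the relative scale the clone by day contrast was positive past the threshold for 19 of the 23 and negative for none. The shares of all genes were 6.65% and 5.29%. Against own spike-ins the contrast was positive for 0 and negative for 15, beside 54 and 14319 of 17209 genes. The part of this response in the synthetase changes was not tested.

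Proteins that assist tRNA charging were taken as a further list. It holds 14 genes, among them those for scaffold, editing, tRNA-finishing and mitochondrial amidation factors. Also in it are Tarsl2, for a threonyl-tRNA synthetase, the elongation factor gene Tufm, the formyltransferase gene Mtfmt, and Pstk and Sepsecs, for selenocysteine synthesis. None of the 14 was higher in either clone on the relative scale. In clone 7E 3 of 14 were lower at day 4, a share near the 19.4% of all genes, and 5 of 14 in the clone 5F libraries labelled day 4, beside 11.6%. Against own spike-ins all 14 were lower in clone 7E (median -1.23, against -1.11 over all genes), beside 14717 of 16333 genes. In clone 5F 6 were lower, beside 2351 of 16349 genes. The 3 lower in clone 7E on the relative scale included Dtd1, for a deacylase that removes D-amino acids from tRNA (-0.57 ± 0.07). The others were Gatb, for a subunit of the mitochondrial amidotransferase (-0.51 ± 0.07), and Aimp2, a scaffold of the multisynthetase complex (-0.17 ± 0.05). In clone 5F, Dtd1 (-0.33 ± 0.08), Gatb (-0.26 ± 0.07), Trnt1, for the enzyme that adds the CCA end (-0.23 ± 0.06), and the scaffold gene Aimp1 (-0.20 ± 0.05) were lowest.

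After actinomycin D, many cytosolic synthetase mRNAs of clone 7E were lost faster at day 4 than at day 0. The change in decay is the difference in slope between days, in log2 per hour, so that a negative value is a steeper loss against the other mRNAs. In clone 7E, 11 of 20 cytosolic mRNAs and 1 of 16 mitochondrial mRNAs lost abundance faster at day 4 and none more slowly, beside 0.551% of 17417 genes faster and 0.436% slower. All 20 cytosolic slopes were steeper, and the median change was -0.07 in the cytosolic set, -0.10 in its free members, -0.06 in the complex, -0.01 in the mitochondrial set and 0.00 over all genes. Median half-lives in clone 7E went from 704 ± 148 to 372 ± 30.5 min in the cytosolic set and from 369 ± 41.3 to 338 ± 14.7 min in the mitochondrial set. That of all protein-coding genes was 286 min at both days, but size factors taken over both clones and days hold it nearly equal. Against own spike-ins the cytosolic median was 727 min at day 0 and 430 min at day 4. The mitochondrial median was then 375 and 385 min, and that of all protein-coding genes 288 and 324 min.

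Aars had risen by day 4 in mock libraries and yet fell to lower values within the course. After 360 min its clone 7E libraries stood at 19642, 20660 and 20928 normalized counts at day 0, which was 84.3 ± 2.8% of the mock mean. At day 4 they stood at 14038, 15449 and 14869, or 45.6 ± 2.2%. On this relative scale the order of the days was reversed between mock and 360 min, with no overlap at either time, whereas against own spike-ins the mock level was already lower at day 4 (-0.68), and the slope changed by -0.15 ± 0.01 log2 per hour (edgeR, adjusted p = 7.20e-08). The half-life of Aars was 1476 min (95% interval 1083 to 2321) at day 0 and 323 min (292 to 361) at day 4.

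The same crossing on the relative scale was seen in other free enzymes, although against own spike-ins the mock levels of Cars, Nars and Yars were already lower at day 4 (-0.63, -0.71 and -0.75). Cars libraries at 360 min stood at 3944, 4008 and 4000 normalized counts at day 0 and at 2994, 3037 and 3007 at day 4, or 84.1 ± 0.7% and 45.9 ± 0.3% of the mock mean. Nars libraries stood at 10973, 11830 and 11923 and at 8221, 7903 and 8714, or 87.3 ± 4.0% and 47.6 ± 2.4%. Yars libraries stood at 4766, 4594 and 4462 and at 3169, 3274 and 2528, or 90.2 ± 3.0% and 46.1 ± 6.2%. In all of these the day 4 libraries lay below the day 0 libraries at 360 min and above them in mock on the relative scale. Their slope changes were -0.14 ± 0.01, -0.15 ± 0.01 and -0.15 ± 0.03 log2 per hour (edgeR, adjusted p = 5.17e-07, 1.08e-07 and 0.0017). Sars, Gars, Tars, Iars, Lars, Eprs and Farsb were the other cytosolic calls, with changes between -0.11 and -0.07.

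**Figure D3:**
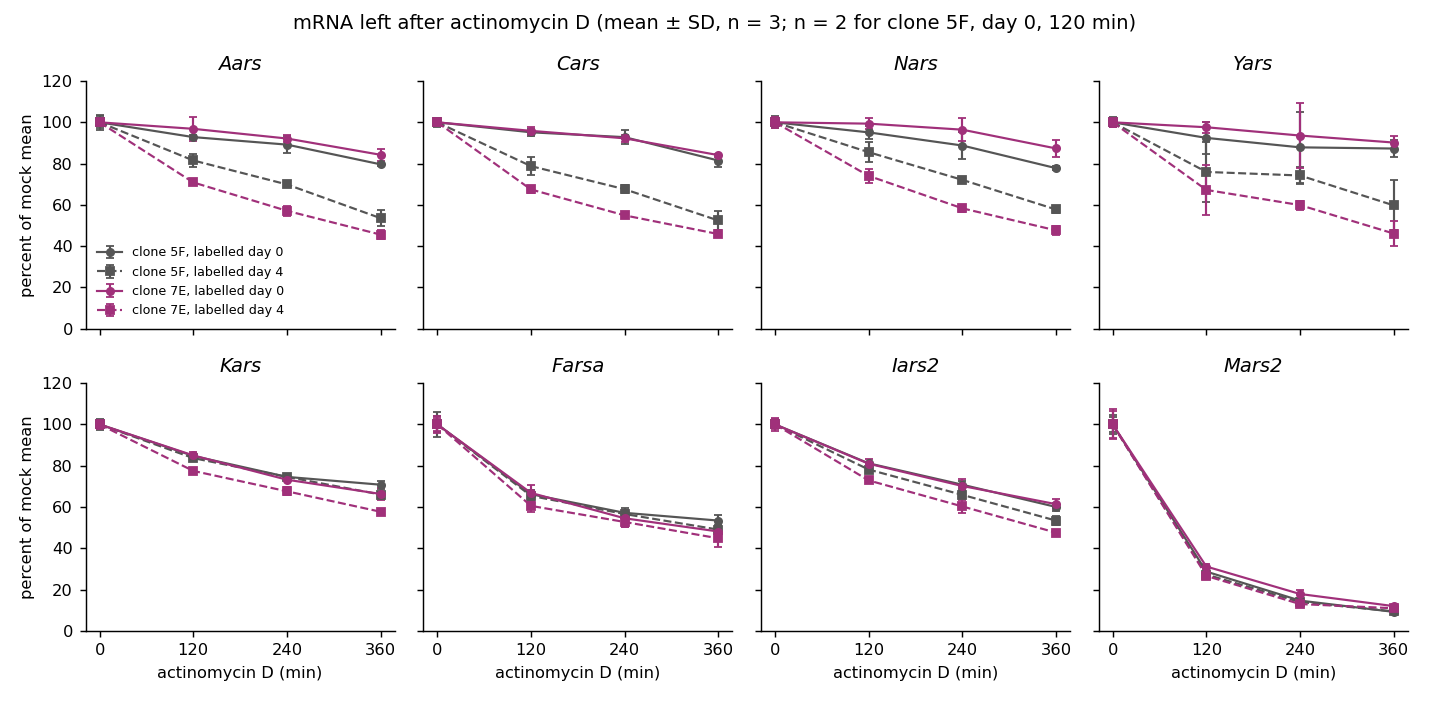
Percent of the mock mean left after 120, 240 and 360 min of actinomycin D for 8 synthetase mRNAs, as mean ± SD of the replicates (n = 3, with n = 2 in the 120 min group of clone 5F at day 0), with both clones and days. Aars, Cars, Nars and Yars keep 77.8 to 90.2% at 360 min at day 0 and 45.6 to 59.8% in the libraries labelled day 4, whereas the curves of Farsa and Mars2 lie close together.

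Not all members behaved so. Kars kept 66.3 ± 2.9% of its mock mean at 360 min in clone 7E at day 0 and 57.7 ± 1.5% at day 4, and its slope change of -0.03 ± 0.01 did not pass the test (edgeR, adjusted p = 0.309). Farsa, with one of the shortest half-lives of its set, kept 48.1 ± 0.4% and 44.8 ± 4.0% (-0.01 ± 0.03, edgeR, adjusted p = 0.967), although its partner subunit Farsb was called at -0.07 ± 0.02. Among mitochondrial mRNAs, Iars2 was the one called, at -0.06 ± 0.01 (edgeR, adjusted p = 0.0192), with 61.4 ± 2.4% and 47.5 ± 1.4% left. Its call was lost against own spike-ins, in the unfiltered table, without any 1 replicate, without the mock or the 360 min libraries, and without the 12 libraries of low mt-Rnr2. The short-lived Mars2 kept 11.9 ± 0.3% and 10.9 ± 0.3%, and Pars2 kept 7.7 ± 0.5% and 9.6 ± 0.6%, with slope changes of -0.03 ± 0.06 and 0.05 ± 0.08 that did not pass.

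Clone 5F showed the pattern in fewer mRNAs. In its libraries labelled day 4, 4 cytosolic and no mitochondrial mRNAs were lost faster and none more slowly, beside 0.0670% of 17901 genes faster and 0.134% slower, and all 20 cytosolic slopes were again steeper. Cars (-0.10 ± 0.01 log2 per hour), Aars (-0.09 ± 0.01), Iars (-0.07 ± 0.01) and Nars (-0.07 ± 0.01) were called. Aars stood at 12248, 12058 and 12080 normalized counts after 360 min at day 0 and at 9243, 9609 and 8331 in the libraries labelled day 4, without overlap, or 79.6 ± 0.7% and 53.6 ± 3.9% of the mock mean. Median half-lives went from 726 ± 76.8 to 464 ± 39.0 min in the cytosolic set and from 391 ± 7.65 to 329 ± 39.1 min in the mitochondrial set. The median slope change was -0.05 in the cytosolic set, -0.02 in the mitochondrial set and 0.00 over all genes. None of the 36 members passed the test of the clone by day difference in decay, nor did any of the 18623 genes (0.00% in either direction); by edgeR 493 genes had an unadjusted p under 0.05, 9 of them members, while DESeq2 called 2 genes in each direction, 1 of them a member.

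**Figure D4:**
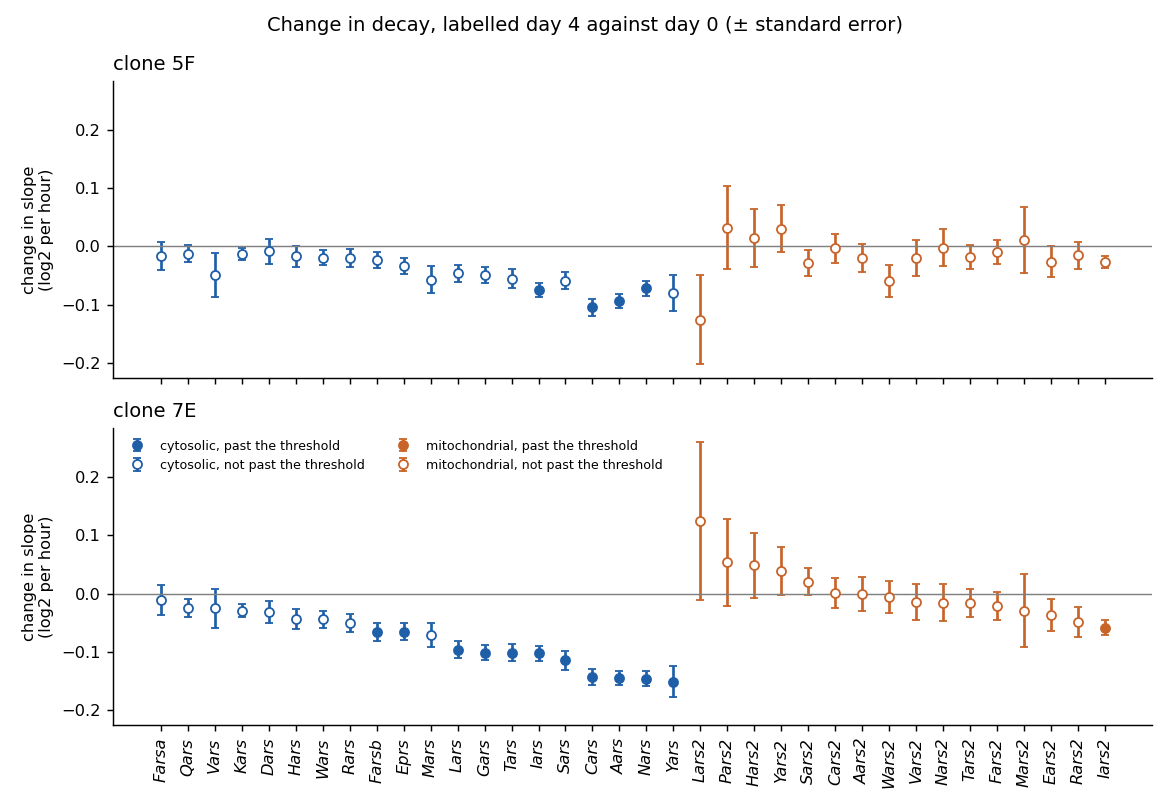
Change in the decay slope of each synthetase mRNA, labelled day 4 against day 0, in log2 per hour ± standard error on the relative scale; filled points passed the edgeR test. All cytosolic points lie below 0 in both clones, to -0.15 for Yars in clone 7E, and in clone 7E against own spike-ins 19 of 20 do.

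These counts depended on the scale and on single replicates. Against own spike-ins, 5 cytosolic and no mitochondrial members were called faster in clone 7E, beside 29 of 17417 genes. There, 19 of 20 cytosolic slopes were steeper. In clone 5F no member was called, beside 3 of 17901 genes, and all 20 cytosolic slopes were steeper. The median slope change over all genes on this scale was 0.02 in clone 7E and -0.01 in clone 5F. Without replicates 1, 2 and 3 in turn the calls in clone 7E were 9, 5 and 8 members, beside 36, 22 and 38 of all genes. Those in clone 5F were 0, 1 and 0 members, beside 0, 1 and 0 of all genes. The mock libraries enter both the level and the decay comparison, so a higher mock value at day 4 steepens the slope by arithmetic. Without the mock libraries 3 members were called in clone 7E, Nars (-0.11), Aars (-0.11) and Cars (-0.09), beside 96 of 16557 genes. None was called in clone 5F, beside 11 of 16988 genes. Of the cytosolic slopes, 18 of 20 in clone 7E and all 20 in clone 5F were then steeper at day 4. The medians over all genes were -0.002 and -0.001. Without the 12 libraries of low mt-Rnr2, a setting chosen after seeing the data, 12 cytosolic members were called faster in clone 7E and 5 in clone 5F. Over all genes, 71 of 17676 and 16 of 18600 were called faster. No mitochondrial member was called in either clone, and all 20 cytosolic slopes were steeper in each. In that setting Nars passed the clone by day test in decay. Stem cell markers stood lower in the clone 7E mock libraries of day 4, as given above, and their part in these results was not tested.

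Some of the ATF4 response genes were also lost faster. Of the 23, 12 passed with a steeper slope at day 4 in clone 7E, beside 0.551% of all genes, and 4 in the clone 5F libraries labelled day 4, beside 0.0670%, and none with a shallower one. Against own spike-ins 8 and 2 passed, beside 29 of 17417 and 3 of 17901 genes called faster. On the relative scale the list had median changes of -0.14 and -0.09 log2 per hour in clones 7E and 5F. Vldlr (-0.59 ± 0.05 in clone 7E, -0.40 ± 0.07 in clone 5F), Nupr1, for a stress-induced nuclear protein (-0.37 ± 0.03 and -0.23 ± 0.03), and Mthfd2, for a mitochondrial folate enzyme (-0.30 ± 0.03 and -0.16 ± 0.03), passed in both clones. Slc7a11 passed in clone 7E (-0.66 ± 0.13), but its day 0 mock libraries held only 2.93 to 5.96 normalized counts. Its day 0 slope thus rests on few counts. Atf4 stood at 0.01 ± 0.04 and -0.02 ± 0.04 without passing. Of the 14 charging partners none passed in either clone.

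Binding by the decay factors separated the sets as well. The deposited values are shares, so that SKIV2L, XRN1 and MTR4 sum to 1 for each mRNA, with replicates pooled and no test possible. The cytosolic set had a median SKIV2L share of 0.556, at percentile 93.1 of 7240 mRNAs, and all 20 members stood above the median of all mRNAs, 0.267. The 13 mitochondrial mRNAs in the table had a median of 0.235 at percentile 41.8, with 6 above the median of all; among mRNAs of at least 5 RPKM, where 10 mitochondrial members remained, their median stood above the median, at percentile 58.5. For MTR4 the order was opposite, with medians of 0.159 (percentile 9.07, 1 of 20 above the median of all mRNAs, 0.319) and 0.398 (percentile 65.9, 11 of 13 above). XRN1 shares lay close together, with medians of 0.265 and 0.275 against 0.337 for all mRNAs, and AVEN ratios were 0.344 and 0.404 against 0.295.

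**Figure D5:**
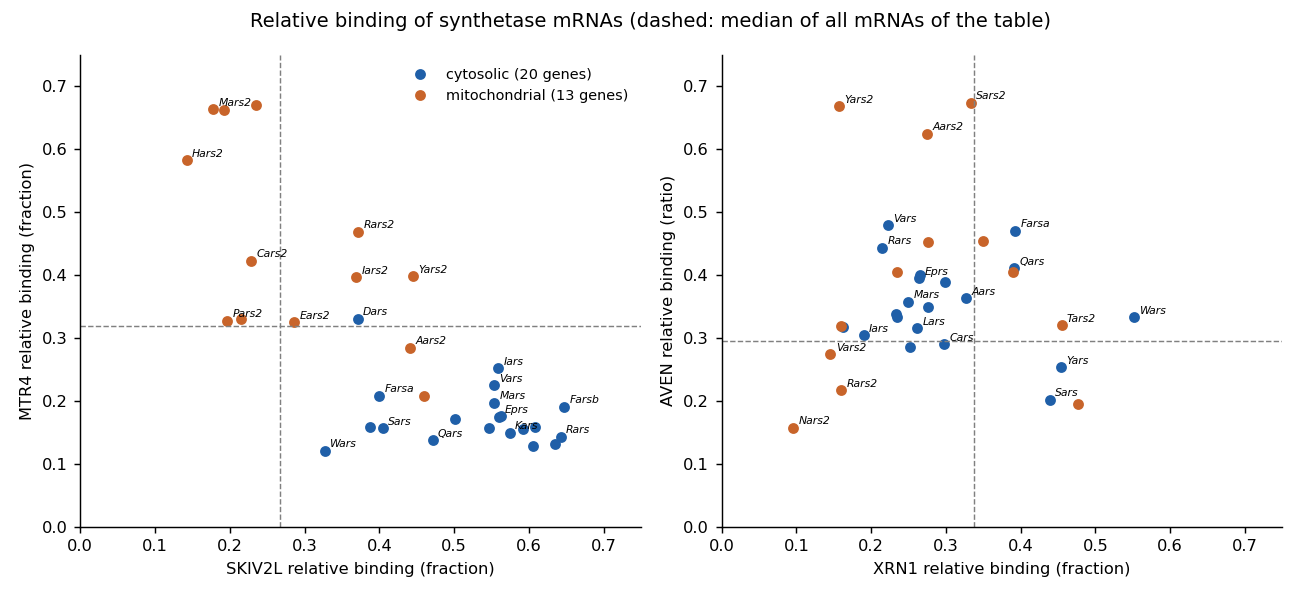
Relative binding of 33 synthetase mRNAs by SKIV2L and MTR4 (left) and by XRN1 and AVEN (right), 1 point per gene, with names where space allows and dashed lines at the medians of all 7240 mRNAs. Cytosolic mRNAs lie right of the SKIV2L median of 0.267 and, all but Dars, below the MTR4 median of 0.319, whereas on the right panel the sets overlap.

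Highest in SKIV2L share were Farsb (0.647), Rars (0.642) and Tars (0.634), and lowest were Hars2 (0.142), Mars2 (0.178) and Vars2 (0.192). MTR4 shares were highest for Nars2 (0.669), Mars2 (0.663) and Vars2 (0.663) and lowest for Wars (0.121), Hars (0.129) and Tars (0.132). The median RPKM of Nars2, Mars2 and Vars2 was only 3.95, 3.52 and 4.45, under the RPKM minimum applied above. Their shares were thus read on mRNAs of low expression. Among mRNAs that met the minimum, the mitochondrial MTR4 median stood at percentile 63.7. Within the cytosolic set Wars stood apart with the highest XRN1 share of all members (0.552), followed by Pars2 (0.477) and Tars2 (0.455), and the lowest XRN1 shares were those of Nars2 (0.0958), Vars2 (0.145) and Yars2 (0.157). Nars2 and Vars2, both under the RPKM minimum, thus lay below the medians of all mRNAs for both cytoplasmic factors. AVEN ratios were highest for Sars2 (0.674), Yars2 (0.668) and Aars2 (0.624) and lowest for Nars2 (0.157), Pars2 (0.196) and Sars (0.202). The dual-compartment mRNAs resembled the cytosolic set, with SKIV2L shares of 0.607 for Gars and 0.574 for Kars. Of the mRNAs with the largest slope changes in clone 7E, Aars, Cars, Nars and Yars had SKIV2L shares of 0.501, 0.546, 0.592 and 0.387 and MTR4 shares of 0.172, 0.157, 0.156 and 0.159. In the 13 amino acid pairs with both mRNAs in the table, SKIV2L binding was higher on the cytosolic member in 11, MTR4 binding in 0, XRN1 binding in 7 and AVEN binding in 6.

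Lars2, which encodes the mitochondrial leucyl enzyme on chromosome 9, could not be read like the others. It exceeded 60 CPM in 7 of the 47 libraries (67.2 to 233 CPM), spread over clones, days and times, and stood at 25.3 to 56.8 CPM in the other 40. In the same 7 libraries the transcript Gm15564 of chromosome 16 stood at 8.96 to 43.4 CPM, against 0.738 to 5.42 CPM elsewhere. Its clone 7E time course at day 4 gave no half-life, since the fitted slope was positive, and its other half-lives had wide or open intervals. The mitochondrial median half-lives above include it.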

How the data were processed

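RNA of the 47 half-life libraries was depleted of ribosomal RNA and sequenced without strand information, and per the submitters' processing notes reads were aligned with STAR 2.5.0a to mm10 with added ERCC spike-ins. The authors deposited raw counts of uniquely mapped reads per gene, unnormalized. They also deposited CRAC relative binding per mRNA, as a fraction of the scaled counts of SKIV2L, XRN1 and MTR4 or, for AVEN, as a ratio to their sum, and RPKM values of the tagged lines. The authors' fitted half-lives were not used here.

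Counts were scaled with DESeq2 size factors within a time point, and time points were joined by a shared ERCC factor each (1, 0.657, 0.538 and 0.441 at 0, 120, 240 and 360 min, from 34 ERCC RNAs with a mean over 50). Genes were kept by filterByExpr and tested in 8 comparisons with edgeR 4.0.16 (quasi-likelihood, Benjamini-Hochberg threshold 0.05 over all genes tested); standard errors are the log2 change over the root of F. Decay slopes were fitted on hours of actinomycin D, with a separate intercept per clone and day. Half-lives came from least-squares lines through the natural log of the value plus 1, with 95% intervals from the standard error of the slope; these steps were tested on simulated data. Levels per kb used the longest principal transcript (Gencode M21). Binding was read as percentiles of 7240 mRNAs, with no test. Percents of mock are means over the mock mean, with the SD of the later libraries only.

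Members and gene lists were chosen with earlier results of these data known. Named were the members past the threshold (up to 4 per direction and set), the 3 highest and lowest per readout, Gars, Kars, Atf4 and up to 4 called genes of each further list; Kars, Farsa, Mars2, Pars2 and Iars2 values after 360 min were added after their values were seen. Alternatives covered scaling (TMM, own spike-ins), tools (DESeq2 1.42.0, limma 3.58.1), filter, block, left-out replicates and time points, 1 fit over both clones, pseudocount, an RPKM minimum of 5 and, chosen after seeing the data, the libraries with mt-Rnr2 under 0.7% of counts left out. The labels give no batch. The smallest chi-square per gene between libraries of a group was 2.48, so no pair of libraries agreed within sampling noise. PCR reads carry no molecular identifiers, so intervals cover the spread between libraries only. CRAC libraries themselves and the expression libraries of the other lines were not analysed here.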

Additional observations from a re-analysis of the deposited data

Results flagged for a closer look

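For 7 synthetase mRNAs the change at day 4 differed between the clones by the clone by day test of the mock libraries (edgeR, adjusted). The contrast, clone 7E minus clone 5F on the log2 scale, was 0.36 for Nars, 0.35 for Sars, 0.27 for Aars, 0.23 for Cars, 0.22 for Gars and 0.20 for Yars, and it was -0.37 for Aars2. Against own spike-ins all were negative, where the median over all genes was -1.03. Groups of 3 libraries were too small for a test of single outlying libraries.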

How the results depend on the processing

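On the relative scale, TMM scaling kept every direction and call of the named members, and limma, DESeq2 and the unfiltered table kept all directions while 2, 4 and 2 of 45 named changes lost their call. Only own spike-ins and leaving out replicate 1 turned directions. Against own spike-ins the level changes in clone 7E became -0.63 (Cars), -0.68 (Aars), -0.71 (Nars), -0.75 (Yars), -0.83 (Mars2), -0.84 (Wars2) and -0.87 (Sars2), and the clone by day contrasts -0.67 (Nars), -0.68 (Sars), -0.76 (Aars) and -0.80 (Cars). Lars2 in clone 7E stood between -0.95 and 0.15 over the left-out replicates. With own spike-ins, 2 members were called higher and 4 lower in clone 5F, 0 and 36 in clone 7E, 0 and 36 in the clone by day contrast and 5 and 11 between the clones at day 0. Members that decayed faster were 0 and 5 in clones 5F and 7E. The counts over all genes on this scale are given above. DESeq2 called 1 member lower in clone 5F and 1 in the clone by day decay contrast, and the unfiltered table called 3 members lower in the clone by day level contrast. Left-out replicates gave 3 to 10 members higher and 0 to 4 lower in clone 5F, 3 to 5 lower in clone 7E, 2 to 4 more positive and 0 to 2 more negative in the clone by day contrast, 1 to 4 lower in clone 7E against clone 5F at day 0, and 0 to 1 and 5 to 9 members decaying faster in clones 5F and 7E. Without the mock libraries 0 and 3 members decayed faster, and without those of 360 min 2 did in clone 5F. Without the 12 libraries of low mt-Rnr2, left out after seeing the data, 5 and 12 members decayed faster in clones 5F and 7E and 1 (Nars) was called in the clone by day decay contrast. The cause was not tested.

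Replicate numbers did not pair the libraries, as the correlation of deviations ran from -0.06 to 0.18 over 23 pairs and exceeded 0.1 in 6, all of them pairs of the libraries of low mt-Rnr2. With the replicate number as a block, 6 members were called higher and 0 lower in clone 5F, and 4 named changes lost their call.

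Median half-lives in clone 7E at day 4 were 430 min (cytosolic) and 385 min (mitochondrial) with own spike-ins and 456 and 406 min without mock libraries. The mitochondrial medians of clone 5F were 405 min with own spike-ins and 485 min without mock libraries at day 0, and 412 min without mock libraries at day 4. That of clone 7E at day 0 was 582 min without mock libraries. The cytosolic medians without mock libraries were 782 and 492 min at day 0 and 4 in clone 5F and 711 min at day 0 in clone 7E. Without mock libraries the medians of all protein-coding genes moved as well, to 467 and 447 min at day 0 and 4 in clone 5F and 435 and 423 min in clone 7E, and with own spike-ins they were 293, 278, 288 and 324 min. Without the libraries of low mt-Rnr2 the mitochondrial medians were 379 min (clone 5F, day 0) and 314 min (clone 7E, day 4), with medians of all genes of 278 and 276 min. Left-out replicates gave mitochondrial medians of 380 to 402 min at day 0 and 312 to 372 min in the libraries labelled day 4 of clone 5F. Among mRNAs of at least 5 RPKM the percentiles of the cytosolic and mitochondrial medians were 92.3 and 58.5 for SKIV2L, 29.6 and 39.8 for XRN1, 9.89 and 63.7 for MTR4 and 60.6 and 77.6 for AVEN. After division by RPKM they were 40.6 for SKIV2L on mitochondrial mRNAs, 31.2 and 31.9 for XRN1 and 12.1 and 78.0 for MTR4. With the union of all annotated exons as the length, a choice made after seeing the data, the median levels per kb were 1921 and 193. Without Lars2, also left out after seeing the data, 9 members were higher in clone 5F. Depth was similar in all libraries.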
